A study of Mus musculus with 20 samples.

Results

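The 9 interferon response genes described here are Stat2, Irf9, Irf7, Ifit1, Ifit3, Isg15, Usp18, Bst2 and Ifi27. They were chosen by gene symbol, from a list of 9 symbols, among the 19716 genes listed in the deposited tables of bulk RNA-Seq from whole mouse retinas. All 9 were listed in every table, and all 9 passed the filter on low values in each comparison. Expression was given as FPKM, fragments per kilobase of transcript scaled to the number of mapped fragments, which allows levels of different genes to be set side by side.

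Retinas of 20 samples were sequenced, 5 in each of 4 groups, and all mice were on the C57BL/6J background. The WT OIR and Atf6 KO OIR groups were pups that breathed 75% oxygen from postnatal day (P) 7 to P12, returned to room air and were collected at P17, a mouse model of retinopathy of prematurity called oxygen-induced retinopathy (OIR). WT pups carried intact Atf6, the gene of an endoplasmic reticulum stress sensor, and Atf6 KO pups were homozygous for an allele that the study describes as carrying a premature stop codon. The PBS and Ceapin-A7 groups were WT mice that were given injections into the vitreous of both eyes at P30, of 1 µL saline with dimethyl sulfoxide or of the same volume with 10 µM Ceapin-A7, a small molecule inhibitor of ATF6, and were collected 24 h later. The study's methods state different strengths of dimethyl sulfoxide for the control and the Ceapin-A7 injection, which cannot be told apart from the drug. No library of an uninjected P30 retina, or of a P17 retina kept in room air, was analysed here. The loss of Atf6 was in every cell of the animal and from conception, whereas Ceapin-A7 was given 1 day before collection. The study drew its mice from several litters, but the labels do not tie the samples to animals or litters, and p-values measure the spread between these samples.

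Type I interferons bind a receptor made of IFNAR1 and IFNAR2, and the kinases JAK1 and TYK2 at this receptor phosphorylate STAT proteins, among them STAT2. STAT2 and IRF9 are subunits of a complex called ISGF3, which binds the interferon-stimulated response element in promoters and raises transcription of many antiviral genes, its own subunits included. In the retina, microglia, Muller glia and endothelial cells are among the cells known to respond to interferon.

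Promoter sequences of the members were read from RefSeq windows of 300 bases, which run from 250 bases before the annotated start of a gene to 50 bases after it on build GRCm38.p6. Windows were found for 7 of the 9 genes, and those of Ifi27 and Usp18 were not used here. The core of the response element was searched on both strands as GAAA, any 2 bases and GAAA, which reads as TTTC, any 2 bases and TTTC on the other strand. The core was present in 5 of 7 members, 71.4%, in 33.7% of 104 other genes of the interferon pathway with a window, and in 3.59% of 12318 genes tested with a window. The 5 members with a match were Stat2, Ifit1, Ifit3, Isg15 and Bst2, and the cores lay between 66 and 222 bases before the start. These stretches are shown as a description. The list was chosen as interferon response genes, and the element is the one that ISGF3 binds, so the share of members is not independent of that choice. Capitals mark the cores, which overlap each other in Isg15 and Bst2, and each line is read 5′ to 3′ on the strand of the gene.
Stat2, chr10:128270256-128270305, plus strand, 1 core: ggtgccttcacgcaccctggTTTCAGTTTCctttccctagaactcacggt
Ifit1, chr19:34640765-34640833, plus strand, 2 cores: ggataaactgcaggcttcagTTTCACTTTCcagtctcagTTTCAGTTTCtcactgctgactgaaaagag
Ifit3, chr19:34583353-34583436, plus strand, 2 cores: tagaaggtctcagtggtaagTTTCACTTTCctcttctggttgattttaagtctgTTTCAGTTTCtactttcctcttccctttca
Isg15, chr4:156200855-156200916, minus strand, 3 cores: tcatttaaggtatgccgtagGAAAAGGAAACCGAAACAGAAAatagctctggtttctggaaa
Bst2, chr8:71537567-71537622, minus strand, 2 cores: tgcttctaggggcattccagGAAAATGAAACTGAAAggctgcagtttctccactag

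Irf7, with 1 window, and Irf9, with 2 windows, held no core by these letters. A second motif, the STAT binding site TTCNNNGAA, which is its own reverse complement, was found in 1 of the 7 members, Bst2, and in 8.22% of the genes tested with a window. A match is a run of letters and was not tested for binding.

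The libraries were checked before the members were compared. Atf6 itself was at 14.6 to 16.1 FPKM in WT OIR and 13.6 to 16.8 FPKM in Atf6 KO OIR, so the total level of its transcript did not tell the genotypes apart, and with an allele described by a stop codon it does not check the labels. Markers of retina were high throughout, with the summed level of 8 rod photoreceptor markers between 13670 and 20620 FPKM. Depth relative to other libraries of the same experiment, read from the value of 1 fragment in 35 genes (OIR) or 46 genes (P30) of very low level, was 0.963 or higher in 19 libraries and 0.714 in Ceapin-A7 replicate 3. Each library was above 0 in only 7 to 21 of these genes. Genes were kept only where their values above 0 were close to each other, so this measure could not show large differences in depth. WT OIR replicate 4 held the highest value of its group for 38.8% of all genes, and Atf6 KO OIR replicate 5 the lowest for 41.5%. The summed level of 12 lens fibre markers ran from 6.19 to 10.2 FPKM in Atf6 KO OIR, from 9.88 to 596 FPKM in WT OIR and from 8.75 to 9591 FPKM at P30. The part of these differences in the results below was not tested.

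The 3 transcription factors of the list were the most abundant members at P17. In WT OIR, Irf7 averaged 17.6 ± 2.16 FPKM (SD, n = 5), Stat2 14.6 ± 1.56 and Irf9 14.3 ± 3.15. Bst2 followed at 11.7 ± 6.61, Ifit3 at 8.14 ± 6.23 and Ifi27 at 5.94 ± 1.48. Isg15 at 4.98 ± 5.35, Ifit1 at 2.19 ± 2.45 and Usp18 at 1.38 ± 1.75 were lowest, each with an SD above its mean. Neighbours in this order differed by less than the SD of at least 1 of the pair, except Irf7 and Stat2. At P30 Stat2 (16.1 ± 4.29 FPKM) and Irf9 (13.9 ± 6.82) stood above Irf7 (13.4 ± 3.91) in PBS, and Ifi27 was next at 10.0 ± 2.40. In Ceapin-A7, Ifi27 (14.4 ± 2.54), Stat2 (13.1 ± 0.561) and Ifit3 (12.9 ± 3.42) stood above Irf7 and Irf9.

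**Figure D1:**
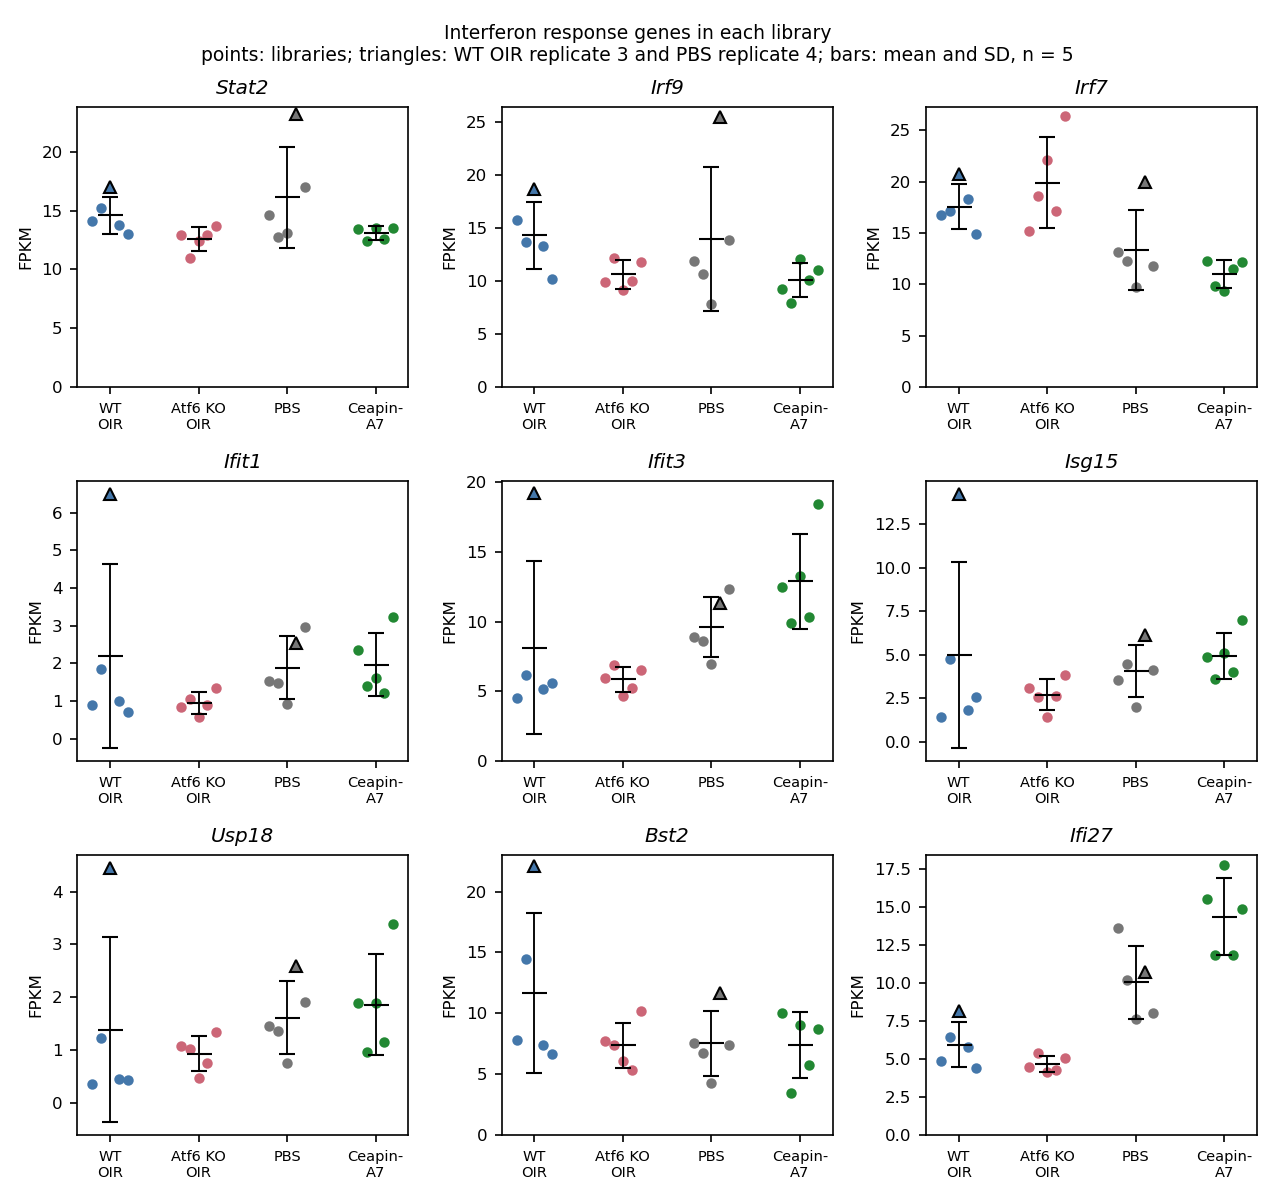
FPKM (y axes, which include 0) of the 9 genes in each of the 20 libraries by group (x axes), with 1 point per library and bars for the mean and SD of 5. Triangles mark WT OIR replicate 3, which is highest of its group in all 9 panels, and PBS replicate 4, which is highest of its group in 6 panels.

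STAT2 is the subunit of ISGF3 that activates transcription. Stat2 was 14.12, 15.23, 17, 13.74 and 12.98 FPKM in WT OIR and 12.91, 11, 12.44, 12.95 and 13.70 FPKM in Atf6 KO OIR. All Atf6 KO OIR libraries except replicate 5 lay below every WT OIR library. In PBS it was 14.62, 12.78, 13.07, 23.20 and 17.01 FPKM, and in Ceapin-A7 it lay between 12.4 and 13.6 FPKM, within the range of the 4 PBS libraries other than replicate 4 or just below it.

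IRF9, the subunit that gives ISGF3 most of its DNA recognition, showed the smallest p among the members in the OIR experiment. In replicates 1 to 5, Irf9 was 15.78, 13.67, 18.70, 13.31 and 10.20 FPKM in WT OIR, and 9.93, 12.21, 9.13, 10.00 and 11.84 FPKM in Atf6 KO OIR. The WT OIR libraries were higher except replicate 5, which lay inside the range of the Atf6 KO OIR libraries. In PBS, Irf9 was 11.87, 10.62, 7.84, 25.50 and 13.91 FPKM, and in Ceapin-A7 it was 9.25, 7.89, 12.06, 10.10 and 11 FPKM. PBS replicate 4 exceeded every other library of the series, and PBS replicate 3 lay below every Ceapin-A7 library.

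IRF7, a factor that itself rises on interferon and drives further interferon transcription, was the only factor with a higher mean in Atf6 KO OIR than in WT OIR. Irf7 was 16.73, 17.19, 20.76, 18.31 and 14.90 FPKM in WT OIR and 15.20, 18.63, 22.13, 17.13 and 26.43 FPKM in Atf6 KO OIR. Replicates 3 and 5 of Atf6 KO OIR lay above every WT OIR library, and the other 3 lay among them. In PBS it was 13.14, 12.25, 9.71, 20 and 11.80 FPKM, and in Ceapin-A7 12.24, 9.80, 9.33, 11.47 and 12.16 FPKM. The Ceapin-A7 libraries sat within or just below the range of the PBS libraries.

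IFIT1 and IFIT3 bind each other and, in the case of IFIT1, foreign RNA ends. Ifit1 was 0.90, 1.84, 6.50, 1.01 and 0.71 FPKM in WT OIR and 0.84, 1.05, 0.57, 0.90 and 1.35 FPKM in Atf6 KO OIR. Ifit3 was 4.52, 6.19, 19.24, 5.19 and 5.57 FPKM in WT OIR and 5.99, 6.86, 4.70, 5.25 and 6.55 FPKM in Atf6 KO OIR. In both genes WT OIR replicate 3 stood far above the other 9 libraries of the experiment, which overlapped.

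At P30, Ifit3 was 8.92, 8.60, 6.96, 11.32 and 12.35 FPKM in PBS and 12.51, 9.90, 13.26, 10.33 and 18.46 FPKM in Ceapin-A7. Replicates 1, 3 and 5 of Ceapin-A7 were above every PBS library. Ifit1 ran from 0.92 to 2.96 FPKM in PBS and from 1.22 to 3.24 FPKM in Ceapin-A7, with wide overlap. Of the 1646 windows of 100 bases in the annotated Ifit3 transcript, 521 (31.7%) were also in transcripts of its copy Ifit3b, so the division of fragments between these genes is uncertain. The share was 3.29% for Ifit1, with Ifit1bl2, and 0.411% for Irf9, with the overlapping gene Rnf31, and no window of the other 6 members was shared.

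ISG15 is a ubiquitin-like protein that is joined to other proteins, and USP18 removes it and also restrains signalling at IFNAR2. Isg15 was 1.41, 4.78, 14.26, 1.86 and 2.59 FPKM in WT OIR and 3.08, 2.57, 1.43, 2.66 and 3.84 FPKM in Atf6 KO OIR. Usp18 was 0.35, 1.23, 4.45, 0.45 and 0.44 FPKM in WT OIR and 1.07, 1.02, 0.47, 0.75 and 1.34 FPKM in Atf6 KO OIR. For Usp18, 3 WT OIR libraries were below every Atf6 KO OIR library and 1 was far above them all.

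At P30, Isg15 ran from 2.02 to 6.14 FPKM in PBS and from 3.59 to 7.02 FPKM in Ceapin-A7, and Usp18 from 0.75 to 2.60 and from 0.96 to 3.39 FPKM. The lowest PBS library for both was replicate 3 and the highest was replicate 4, while the highest Ceapin-A7 library for both was replicate 5.

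BST2, also called tetherin, holds budding virus particles at the cell surface. Bst2 was 7.80, 14.45, 22.07, 7.36 and 6.65 FPKM in WT OIR and 7.70, 7.38, 6.10, 5.38 and 10.21 FPKM in Atf6 KO OIR. WT OIR replicates 2 and 3 were above the other 8 libraries, which overlapped. It ran from 4.26 to 11.7 FPKM in PBS and from 3.49 to 10.1 FPKM in Ceapin-A7.

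IFI27 is a small mitochondrial and nuclear membrane protein, and its gene is widely used as a marker of interferon exposure. Ifi27 was 4.86, 6.43, 8.18, 5.82 and 4.41 FPKM in WT OIR and 4.45, 5.41, 4.13, 4.29 and 5.07 FPKM in Atf6 KO OIR. In PBS it was 13.59, 10.23, 7.60, 10.74 and 8.04 FPKM, and in Ceapin-A7 15.55, 11.87, 17.74, 11.81 and 14.84 FPKM. All Ceapin-A7 libraries were above the 10 P17 libraries, and 3 of them were above every PBS library.

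The first comparison asked whether loss of Atf6 changed these genes in OIR at P17. No member was called at an adjusted p under 0.05 (limma, Benjamini-Hochberg adjustment over all genes), where 5 of all 15704 genes tested, 0.0318%, were called (0.0255% higher and 0.00637% lower). With no adjustment, 1 of 9 members had a p of 0.05 or less, against 12.7% of all genes (6.94% higher and 5.81% lower). With FPKM as deposited, 582 of the 1906 genes past this threshold were higher, in place of 1090 of 2002. The count of members was 2 with FPKM as deposited (1906 of 15704 genes) and 3 on a scale of equal sums (TPM, 1839 of 15704 genes). It was 4 with array weights, where 5749 of 15704 genes passed, and 0 in a fit of 20 libraries, where 2729 of 15628 did. Leaving out 1 library gave 1 to 3 members and 1092 to 4011 genes in all. It was 3 members without WT OIR replicate 5 (1725 of 15718 genes) or Atf6 KO OIR replicate 5 (4011 of 15718). The member was Irf9, with a log2 difference of -0.39 (Atf6 KO OIR minus WT OIR, SE 0.14, unadjusted p = 0.0178, adjusted p = 0.362, exact two-sided permutation p = 0.0397), or 0.762 of the WT OIR level. The smallest p that the permutation of 5 against 5 libraries can give is 0.00794. In bulk retina, fewer cells that express a gene and less RNA per cell cannot be told apart.

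Of the 9 members, 7 had a mean log2 level below that of WT OIR and 2, Irf7 and Usp18, above it, where 50.7% of all genes were above it. Their median difference was -0.30, against 0.0028 over all genes. Without WT OIR replicate 3 the median was -0.14, 5 members were below and 4 above, and no member was called. The log2 differences of Ifit3, Isg15 and Usp18 were then 0.14, 0.12 and 0.61, in place of -0.23, -0.38 and 0.052 with all libraries. Those of Ifit1, Bst2 and Ifi27 were -0.17, -0.25 and -0.18, in place of -0.67, -0.51 and -0.30. That of Irf9 was -0.29 without this library. No member separated the groups without overlap, where 1.11% of all genes did so with higher and 0.694% with lower values in Atf6 KO OIR.

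The 95% intervals of the differences were wide for the members that varied between libraries. They ran from -1.71 to 0.362 for Ifit1, from -1.49 to 0.735 for Isg15, from -1.15 to 1.25 for Usp18, from -1.18 to 0.154 for Bst2 and from -0.918 to 0.466 for Ifit3. For the factors they were narrower, from -0.389 to 0.00425 for Stat2, from -0.703 to -0.0807 for Irf9 and from -0.133 to 0.487 for Irf7. A 2-fold change lay outside the interval for Stat2, Irf9, Irf7, Ifit3 and Ifi27 (-0.617 to 0.0231). It lay inside the interval, in at least 1 direction, for Ifit1, Isg15, Usp18 and Bst2. Ifi27 differed by -0.30 (SE 0.15, adjusted p = 0.413, exact permutation p = 0.111).

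**Figure D2:**
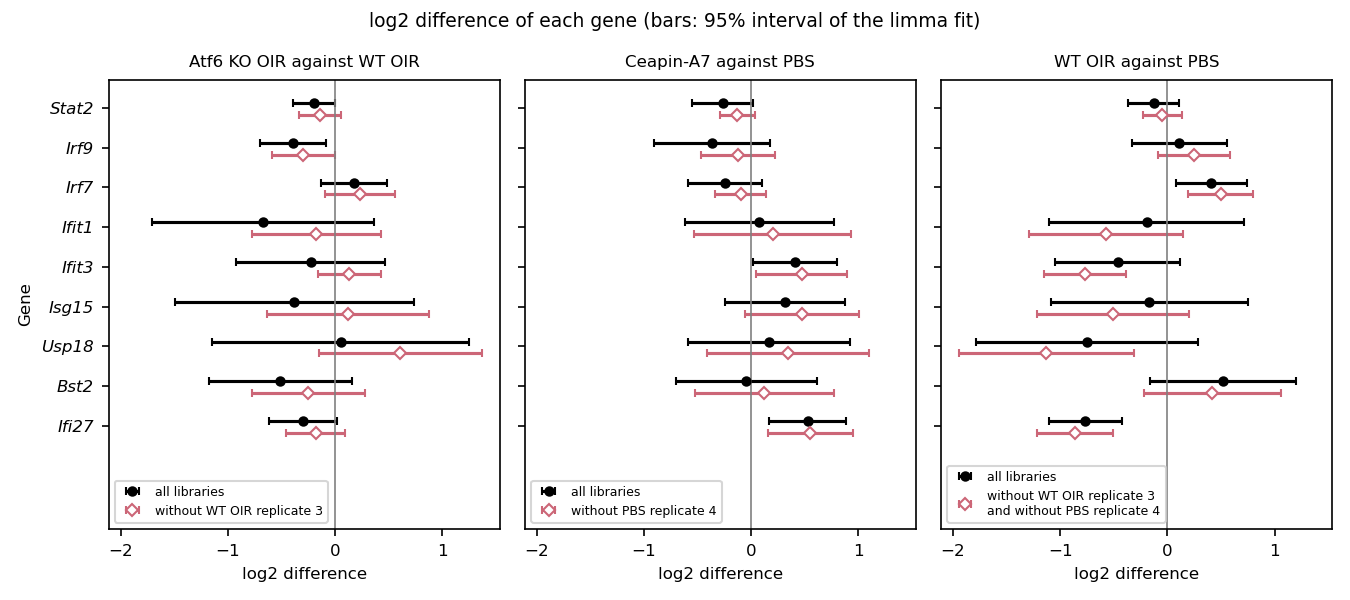
log2 differences (x axes) of the 9 genes (y axis) in 3 comparisons, with bars for the 95% interval of the limma fit. Filled circles use all libraries and open diamonds leave out WT OIR replicate 3, PBS replicate 4 or both, and without WT OIR replicate 3 the intervals of Ifit1, Ifit3, Isg15, Usp18 and Bst2 in the left panel are shorter and Ifit3 and Isg15 lie above 0.

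The second comparison asked whether an injection of Ceapin-A7 changed the same genes at P30. No member was called, and neither was any of the 15408 genes tested (0.00%), while 1595 genes (10.4%) had an unadjusted p of at most 0.05 (5.04% higher and 5.31% lower). On a scale of equal sums (TPM), 456 of 1699 such genes were higher, in place of 777 of 1595. Of the members, 2 of 9 passed the unadjusted threshold, both higher in Ceapin-A7. Ifi27 was 0.53 higher on the log2 scale, 1.44-fold (SE 0.16, unadjusted p = 0.00775, adjusted p = 0.472, exact permutation p = 0.0397), and Ifit3 was 0.41 higher, 1.33-fold (SE 0.18, unadjusted p = 0.0416, adjusted p = 0.475, exact permutation p = 0.0873).

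The subunits of ISGF3 had lower means in Ceapin-A7. The log2 difference was -0.26 for Stat2 (SE 0.13, adjusted p = 0.492), -0.37 for Irf9 (SE 0.25, adjusted p = 0.580) and -0.25 for Irf7 (SE 0.16, adjusted p = 0.563). Without PBS replicate 4 these differences were -0.13, -0.13 and -0.097, so each fell by more than 1.5 times, while Ifi27 and Ifit3 were at 0.55 and 0.47. Isg15 differed by 0.31, Usp18 by 0.16, Ifit1 by 0.076 and Bst2 by -0.047, each with an SE of 0.25 to 0.34. Bst2 was at 0.12 without PBS replicate 4. In all, 5 of 9 members were above and 4 below 0, where 50.3% of all genes were above. The median was 0.076, against 0.00089 over all genes, but it did not keep its sign when 1 library was left out. It was then between -0.13 (without PBS replicate 3, with 3 members above 0) and 0.24 (without PBS replicate 5), and also below 0 without Ceapin-A7 replicate 5 (-0.12, 3 above 0) or replicate 1 (-0.012, 4 above 0). Without PBS replicate 3, 4 members passed the unadjusted threshold, 1 higher and 3 lower, where 2224 of 15416 genes did. With all libraries a 2-fold change lay outside the 95% interval for all 9 members, the widest being from -0.592 to 0.919 for Usp18. No member separated the groups, where 0.785% of all genes did so with higher and 0.688% with lower values.

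The third comparison set the control groups side by side to order the levels. WT OIR and PBS retinas differ in age, oxygen history, injection and experiment, which cannot be told apart, and each group is also the control of a comparison above. In a fit of all 20 libraries, 2 of 9 members were called, where 59.0% of 15628 genes were (29.6% higher and 29.4% lower). Ifi27 was lower in WT OIR by a log2 difference of -0.77 (SE 0.16, adjusted p = 4.5e-04, exact permutation p = 0.0238), and 4 of 5 WT OIR libraries lay below every PBS library. Irf7 was higher by 0.41 (SE 0.16, adjusted p = 0.0321, exact permutation p = 0.0556).

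The call of Irf7 was lost without any 1 of WT OIR replicates 3 and 4 and PBS replicates 2, 3 and 5, with adjusted p-values of 0.0524 to 0.103 and differences of 0.31 to 0.40. The call of Ifi27 held without any 1 library. Without WT OIR replicate 3, Ifit3 and Usp18 were called as well, lower in WT OIR by log2 differences of -0.82 and -1.31 in place of -0.46 and -0.75. In that setting 8744 of 15623 genes were called. Bst2 differed by 0.52 (SE 0.33, adjusted p = 0.18), and by 0.25 without WT OIR replicate 3. Of the 9 members, 3 were above 0, where 50.9% of all genes were. The median was -0.17, against 0.0095 over all genes. It ran from -0.67 without WT OIR replicate 3 to -0.0097 without PBS replicate 4, was -0.022 without WT OIR replicate 1, and was 0.090 with array weights. No member separated the groups, where 19.8% of all genes did so with higher and 21.5% with lower values in WT OIR.

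WT OIR replicate 3 held the highest level of its group for all 9 members. Over all genes tested this library was highest for 15.9%. Usp18 was 12.7 times its lowest WT OIR level there, Isg15 10.1 times, Ifit1 9.15 times, Ifit3 4.26 times and Bst2 3.32 times, whereas the median gene, of 13049 that averaged 1 FPKM or more, had a ratio of 1.29 between its highest and lowest WT OIR library. Ratios as large as those of these 5 members were found in 0.169% to 0.889% of those genes. The average of 1 FPKM included replicate 3, without which Usp18 averaged less. Usp18 therefore entered this set through the level that its ratio describes, and its lowest level was 0.35 FPKM. Stat2, at a ratio of 1.31, and Irf7, at 1.39, were near the median gene. WT OIR replicate 2 was second for 7 of the 9 members.

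Few other genes stood out in that library. Among 13061 genes that averaged 1 FPKM or more in the OIR experiment, 12 were at least 2 times the next highest WT OIR library in replicate 3. Of these, 4 were members (Ifit1, Ifit3, Isg15 and Usp18) and 6 were on the list of other interferon pathway genes, namely Cxcl10, Gbp3, Ifih1, Ifit3b, Igtp and Sp100. The remaining 2 were Gbp9 and Crh. The average of 1 FPKM included replicate 3 itself. Without that library Usp18, Cxcl10 and Sp100 averaged less than this, so they entered the count through the level that it describes. In the other 19 libraries no member stood out in this way. This count was chosen after the values were seen.

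Marker levels of other cell types in that library were as follows. The summed FPKM of 12 endothelial markers was 210 in WT OIR replicate 3 and 138 to 201 in the other 4 libraries. That of 18 microglia and macrophage markers was 214, between 161 and 245 in the others. That of 7 neutrophil and monocyte markers was 2.15 against 0.66 to 2.15, and that of 8 T and NK cell markers 0.89 against 0.79 to 1.17, where the T cell gene Cd3e was at 0.03 FPKM. The part of these cells in the levels of the members was not tested.

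**Figure D3:**
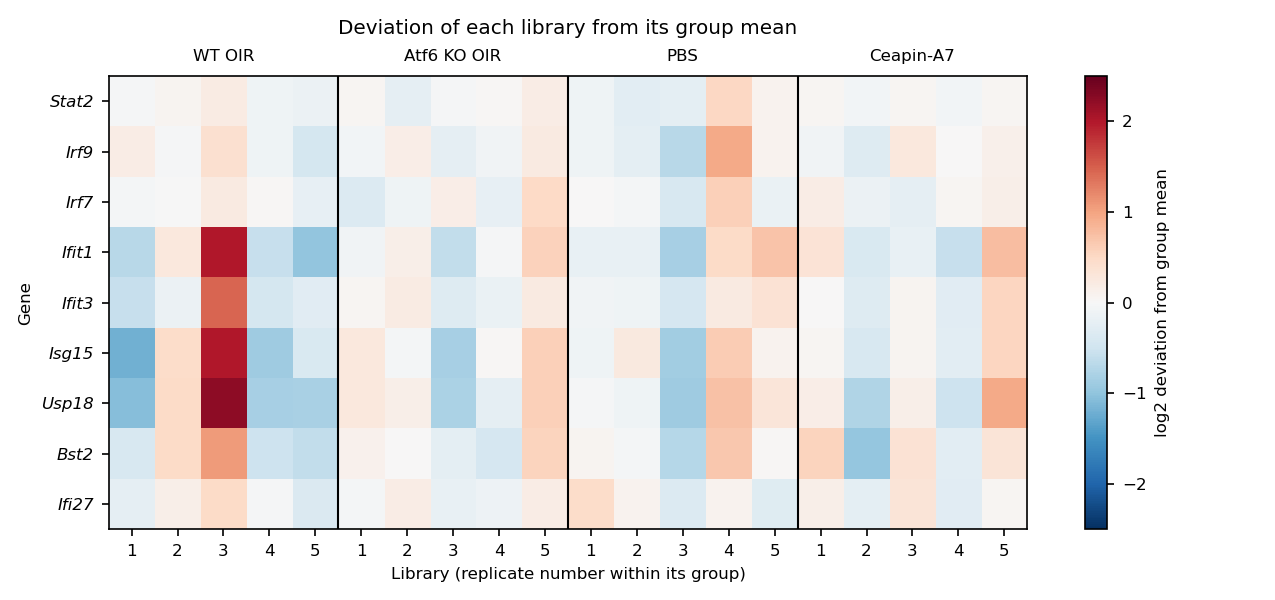
Deviation of the log2 level of each of the 9 genes (rows) from its group mean in each of the 20 libraries (columns, in 4 groups of 5), on a colour scale of -2.5 to 2.5. WT OIR replicate 3 is red in every row, most in Ifit1, Ifit3, Isg15 and Usp18, and PBS replicate 4 is red most in Irf9, Usp18, Bst2, Isg15 and Irf7.

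In PBS the members were highest in replicate 4 for 6 genes (Stat2, Irf9, Irf7, Isg15, Usp18 and Bst2), in replicate 5 for Ifit1 and Ifit3, and in replicate 1 for Ifi27. They were lowest in replicate 3 for 8 genes, a library that was lowest for 18.6% of all genes. The ratio of the highest to the lowest PBS library was 3.25 for Irf9, 3.47 for Usp18 and 3.04 for Isg15, against 1.24 for the median gene. PBS replicate 4 also had the highest summed neutrophil and monocyte markers (3.89 FPKM, against 0.51 to 2.22) and endothelial markers (117.5 FPKM, against 95.7 to 104.9) and the lowest summed Muller glia markers (1248 FPKM, against 1449 to 2219). Without the single marker of widest range, Kdr, the endothelial sum was 68.2 FPKM, inside the 59.3 to 72.6 of the others. Without Glul, the Muller glia marker of widest range, that sum was 994 FPKM, inside the 931 to 1195 of the others. Of the 9 Muller glia markers, 5 were lowest in this library and 2, Vim and Slc1a3, were highest. Their part was not tested.

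In Atf6 KO OIR, replicate 5 was highest for 6 members and replicate 3 lowest for 6. In Ceapin-A7, replicate 5 was highest for 4 members and replicate 2 lowest for 6.

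**Figure D4:**
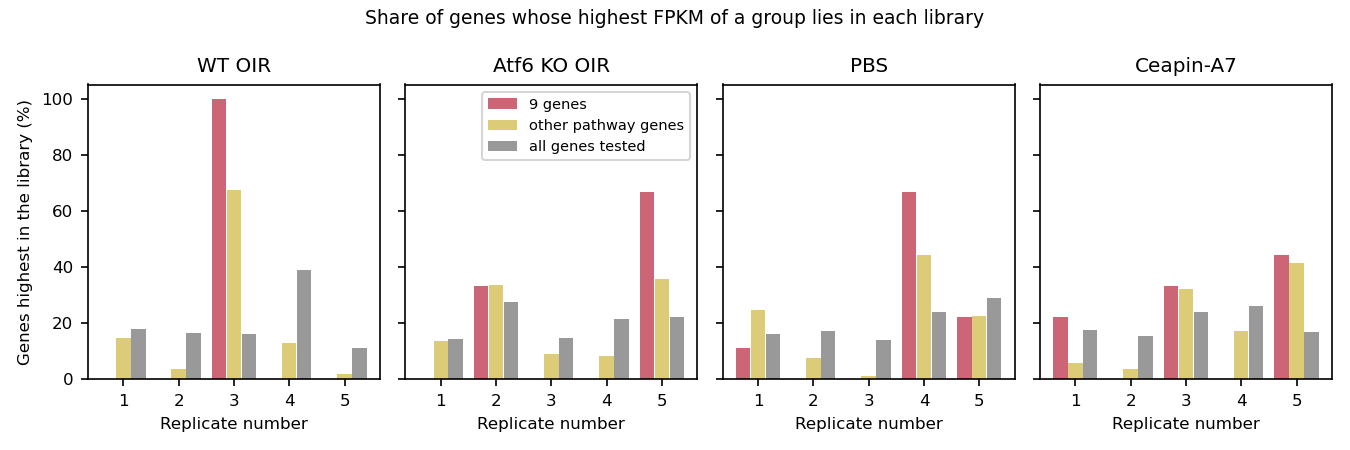
Percentage of genes (y axis, from 0) whose highest FPKM of a group lies in each of its 5 libraries (x axes), for the 9 genes, the other interferon pathway genes tested and all genes tested. In WT OIR the bar of replicate 3 reaches 100% for the 9 genes and 67.3% for the other pathway genes, against 15.9% for all genes.

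The members deviated from their group means together. Over the 20 libraries, with each value centred on its group, the Pearson r of a member with the mean of the other 8 was 0.93 for Usp18, 0.91 for Bst2, 0.89 for Ifit1, 0.87 for Isg15 and 0.83 for Ifit3. It was 0.74 for Irf9, 0.69 for Stat2, 0.66 for Ifi27 and 0.59 for Irf7. Without WT OIR replicate 3 these values ran from 0.55 for Ifi27 to 0.90 for Usp18. They are a description, since the members share libraries.

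The genes outside the list whose deviations were most like the mean of the members were, of 12988 that averaged 1 FPKM or more, Parp14 (r = 0.92, rho = 0.88), Irgm1 (r = 0.92, rho = 0.86), Rnf213 (r = 0.92, rho = 0.91) and Gbp6 (r = 0.91, rho = 0.90). They were followed by Tor3a, Igtp, Irgm2 and Gbp3, with r of 0.88 to 0.90. Without WT OIR replicate 3, r over the 8 genes ran from 0.81 to 0.88. Of the 20 genes most alike, 16 were on the list of other interferon pathway genes, which holds 76 of all 12988.

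The rest of the pathway was described with a list of 122 further genes found in the tables. The ligands were barely seen: 8 interferon genes were listed and none exceeded 0.13 FPKM in any library. Ifng was above 0 in 3 WT OIR libraries, at 0.09 FPKM or less, and Ifnb1 in 2 PBS libraries at 0.08 and 0.09 FPKM, and no ligand passed the filter.

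The receptors and kinases were present in all groups. Ifnar1 averaged 10.9 FPKM in WT OIR, 10.7 in Atf6 KO OIR, 10.2 in PBS and 10.1 in Ceapin-A7, and Jak1 37.3, 38.5, 31.2 and 31.2 FPKM. Tyk2 averaged 6.45 FPKM in WT OIR and 6.22 in Atf6 KO OIR, and 5.69 and 5.68 at P30. The type II receptor genes Ifngr1 and Ifngr2 differed between Atf6 KO OIR and WT OIR by 0.025 and 0.060 on the log2 scale (adjusted p = 0.838 and 0.673).

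Ifnar2, the subunit that binds interferon with high affinity, averaged 12.8 ± 1.73 FPKM in WT OIR and 10.3 ± 1.45 in Atf6 KO OIR. The log2 difference was -0.30 (SE 0.11, unadjusted p = 0.0220, adjusted p = 0.362).

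Over the list, 110 genes were tested in OIR and none was called. At the unadjusted threshold 9 were lower and 0 higher in Atf6 KO OIR (8.18%). Of all genes 12.7% passed it, 5.81% lower and 6.94% higher. Leaving out 1 library gave between 4 (without WT OIR replicate 3 or Atf6 KO OIR replicate 1) and 20 (without Atf6 KO OIR replicate 5). The counts over all genes were then 1431 of 15714, 1346 of 15728 and 4011 of 15718. Without WT OIR replicate 5 the list count was 19 of 110, against 1725 of 15718 genes, and on a scale of equal sums 14, against 1839 of 15704. Its place against the background therefore depends on the libraries used. Of the 110, 94 had a mean below WT OIR, where 49.3% of all genes did, and the median difference was -0.21. Without WT OIR replicate 3, 71 of 109 were below and the median was -0.068. The 5 genes with the smallest p were Il10rb (-0.34, unadjusted p = 0.00263), a shared receptor chain for interferon lambda, Irf8 (-0.47, 0.00933), a factor of myeloid cells, Irf1 (-0.40, 0.0103), H2-T23 (-0.45, 0.0113), a nonclassical class I gene, and Ifnar2, with adjusted p-values of 0.358 to 0.362. Il10rb, picked for its small p, did not overlap between groups in FPKM, at 3.83 to 4.89 in WT OIR and 3.11 to 3.52 in Atf6 KO OIR. Of all genes tested, 0.694% lay lower in Atf6 KO OIR without overlap of the rescaled values. In the same comparison 16 of 18 microglia and macrophage markers were below 0 (median -0.13), as were 11 of 12 endothelial markers (median -0.30). So were 4 of 4 neutrophil and monocyte markers tested (median -0.67) and 10 of 11 lens fibre markers (median -2.52). Above 0 were 7 of 8 retinal pigment epithelium markers (median 1.1) and 8 of 8 rod photoreceptor markers (median 0.098). Of 9 Muller glia markers 5 were above 0 (median 0.063), and of 2 T and NK cell markers tested 1 was. None of these markers was called, and the part of these cells was not tested.

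By role, 67 of 72 other interferon-stimulated genes were below WT OIR with a median of -0.25, as were 5 of 5 interferon regulatory factors (median -0.23) and 8 of 9 inhibitors and enzymes of ISG15 conjugation (median -0.21). The 14 nucleic acid sensors and adaptors had a median of -0.049, the 6 receptors -0.099 and the 4 kinases and STATs 0.014. WT OIR replicate 3 was highest of its group for 59 of the 72 other interferon-stimulated genes, 7 of the 14 sensors and 6 of the 9 inhibitors and enzymes, but for 1 of the 6 receptors and 0 of the 5 regulatory factors. Of these regulatory factors, Irf3 averaged 41.6 FPKM in WT OIR and 39.1 in Atf6 KO OIR (-0.070, adjusted p = 0.574).

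Close relatives of the members were read beside them. Ifit3b was at 1.24, 2.69, 6.42, 2.33 and 2.19 FPKM in WT OIR and 2.23 to 3.30 FPKM in Atf6 KO OIR, a log2 difference of 0.0050 (SE 0.32, adjusted p = 0.995). Ifit1bl1 did not exceed 0.43 FPKM in any library. Ifi27l2a, a relative of Ifi27, averaged 5.10 FPKM in WT OIR and 3.21 in Atf6 KO OIR (-0.55, SE 0.26, adjusted p = 0.393), and Ube2l6, the enzyme that passes ISG15 on, 8.61 and 6.74 FPKM (-0.31, SE 0.14, adjusted p = 0.391).

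After Ceapin-A7, 106 genes of the list were tested and none was called. At the unadjusted threshold 4 were higher and 4 lower (7.55%, against 10.4% of all genes), 59 were above and 47 below PBS, and the median difference was 0.026. Without PBS replicate 4, 72 were above and 34 below and the median was 0.083. Without PBS replicate 3 the median was -0.0040 and 17 of 107 passed the unadjusted threshold, 4 of them higher. Over all genes 2224 of 15416 then passed, 1056 of them higher. On a scale of equal sums 50 were above with a median of -0.011. The 5 genes with the smallest p were Ticam1, an adaptor of RNA sensing (-0.66, unadjusted p = 0.00324), H2-T23 (0.33, 0.0108), Ddx60 (0.70, 0.0143), Uba7, the enzyme that activates ISG15 (0.34, 0.0154), and Znfx1 (-0.15, 0.0254), each with an adjusted p of 0.472. Ifi27l2a was 0.64 higher (SE 0.25, unadjusted p = 0.0282, adjusted p = 0.472) at 1.84 FPKM against 1.15 FPKM in PBS, the same sign as Ifi27.

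In WT OIR against PBS, 50 of 108 genes of the list were called (46.3%), 41 higher and 9 lower in WT OIR. Of all genes 59.0% were called, 29.6% higher and 29.4% lower. The median of the list was 0.28 (0.16 without WT OIR replicate 3 and 0.11 after quantile normalization). The higher genes with the largest change were Ifi27l2a (1.99, adjusted p = 3.4e-06), Lgals9 (1.84, 2.0e-07), Oas3 (1.82, 4.2e-09), Sting1 (1.76, 6.1e-08) and Ifi44 (1.63, 0.00303). Oas3 and Ifi44 averaged under 1 FPKM in both groups, Oas3 did not exceed 0.08 FPKM in PBS, and Ifi44 was at 2.60 FPKM in WT OIR replicate 3 and 0.22 to 0.96 in the other 4. Ifi27l2a was higher in WT OIR and Ifi27 lower, although both belong to 1 family.

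The lower genes with the largest change were H2-D1 (-0.70, adjusted p = 0.00346), Trim25 (-0.63, 7.2e-05), Cmpk2 (-0.53, 0.00395), Adar (-0.52, 2.4e-04) and H2-K1 (-0.49, 0.00380). H2-D1 and H2-K1 encode classical class I antigen-presenting molecules, and H2-D1 averaged 39.0 FPKM in WT OIR and 65.6 FPKM in PBS. Of the genes that carry the signal, Ifnar2 (0.81, adjusted p = 1.3e-06), Irf3 (0.57, 6.2e-08), Ifngr2 (0.35, 7.0e-05), Jak1 (0.24, 3.6e-05) and Ifngr1 (0.17, 0.00589) were higher in WT OIR. Ifnar1 (0.072, adjusted p = 0.181), Tyk2 (0.16, 0.0709) and Irf1 (0.19, 0.340) were not called. By role, 3 of 6 receptors, 1 of 4 kinases and STATs and 3 of 5 regulatory factors were called, where 59.0% of all genes were. In the same comparison 16 of 18 microglia and macrophage markers and 9 of 12 endothelial markers were called, all higher in WT OIR. Of 9 Muller glia markers 5 were called higher and 1 lower, and of 8 rod photoreceptor markers 2 were called higher. Called lower were 4 of 8 retinal pigment epithelium markers and 1 of 12 lens fibre markers. Of 4 neutrophil and monocyte markers tested 0 were called, and the 1 T and NK cell marker tested was called higher. The part of these cells in the differences was not tested.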

How the data were processed

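Per the labels and the study's methods, the authors made stranded paired-end mRNA libraries of whole retinas, aligned reads with HISAT2 (v2.0.4) to the GRCm39 build, quantified genes by RSEM (v1.2.18) and tested them with DESeq2 (v1.4.5). They deposited FPKM to 2 decimals. The study states 1 nominal read number for all samples, and no counts or totals per library were used here, so no counting interval was computed. The members, lists and tests were chosen with earlier results of these data known.

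Here each library was scaled by the median of its ratios to the geometric mean, and log2(FPKM + 0.1) was fitted in R 4.3.3 with limma 3.58.1 (moderated variances with a trend), for genes that averaged over 0.1 FPKM. Differences therefore understate changes of low genes. Each experiment was fitted apart, and WT OIR against PBS in all 20 libraries. Calls were at a Benjamini-Hochberg adjusted p under 0.05. Members were also tested by exact two-sided permutation. The fits were tested on simulated data. Named pathway genes were 15 chosen genes, of which 1 is not reported here, and, per comparison, the 5 most changed called genes in each direction or, with fewer than 3 calls, the 5 with the smallest p. Genes standing out in a library were named after their values were seen. Alternatives were other pseudocounts, filters, scalings, weights, a replicate block and fits, and leaving out each library. Transcripts of GENCODE M21 gave the shared windows.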

Additional observations from a re-analysis of the deposited data

Results flagged for a closer look

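Single libraries stood apart from the other 4 of their group, by Dixon's test for a lone value, for 4 of the members and 3 of the chosen pathway genes. The limit used flags about 1 in 20 groups of values with a normal spread. It was applied to FPKM without logs, where flags were more frequent. In WT OIR replicate 4 alone, 597 of 15704 genes were flagged as high and 506 as low. For the members, all were in WT OIR replicate 3: Ifit1 at 6.50 FPKM (0.71 to 1.84 in the others), Ifit3 at 19.24 FPKM (4.52 to 6.19), Isg15 at 14.26 FPKM (1.41 to 4.78) and Usp18 at 4.45 FPKM (0.35 to 1.23). Ifit3b, the copy of Ifit3, stood apart in the same library at 6.42 FPKM (1.24 to 2.69). Over all genes tested, 0.554% stood apart on the high side in that library, against 44.4% of the members and 10.9% of the other pathway genes.

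In PBS replicate 4, Ifnar1 was at 11.49 FPKM (9.81 to 9.99). Ifngr2 was low in PBS replicate 1 at 14.27 FPKM (16.52 to 17.24), and Ifnar1 was low in Ceapin-A7 replicate 2 at 9.74 FPKM (10.11 to 10.26).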

How the results depend on the processing

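In Atf6 KO OIR against WT OIR, array weights called 1 member, Irf9 (log2 difference -0.46, adjusted p = 0.0488), and 2769 genes in place of 5. The all-gene count was 9 without the filter and without Atf6 KO OIR replicate 5, and 11 in a fit of 20 libraries. In WT OIR against PBS, rescaling to equal sums (TPM) called 1 member and 9153 of 15628 genes, since Irf7 was then at 0.38 (adjusted p = 0.0526). The fit without WT OIR replicate 3 and PBS replicate 4, a choice made after seeing the data, called 4 members and 8525 of 15633 genes. Leaving out 1 library gave 0 to 0 members called in both treatment comparisons and 1 to 3 in WT OIR against PBS. In Ceapin-A7 against PBS no setting called a member, and 1 gene was called in the fit of 20 libraries.

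Signs turned for uncalled members. Usp18 in OIR was -0.077 at a pseudocount of 1 and -0.42 with array weights. With array weights, Bst2 after Ceapin-A7 was 0.0085, and in WT OIR against PBS Ifit1 was 0.090 and Isg15 0.22. Leaving out 1 library gave ranges in OIR of -0.37 to 0.14 for Ifit3, -0.68 to 0.12 for Isg15 and -0.21 to 0.61 for Usp18. After Ceapin-A7 they were -0.13 to 0.25 for Ifit1, -0.076 to 0.35 for Usp18 and -0.23 to 0.19 for Bst2. In WT OIR against PBS they were -0.20 to 0.0018 for Stat2, -0.062 to 0.35 for Irf9, -0.69 to 0.055 for Ifit1 and -0.67 to 0.14 for Isg15. The cause of these turns was not tested.

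The replicate number as a block called 0, 0 and 2 members, as without it. Deviations of same-numbered samples had r from -0.26 to 0.21 in OIR and from -0.22 to 0.31 after Ceapin-A7. The most similar control library had the same number only for Atf6 KO OIR replicate 4 and Ceapin-A7 replicate 1. The numbers were not treated as pairs in the main fits, and a shared litter or day was not tested.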
